A study of Homo sapiens with 26 samples.

Results

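In this account 9 genes of the glycolytic pathway were followed through 26 ribosome profiling libraries. The genes were taken by symbol from a list of 10 glycolytic enzymes and lactate dehydrogenases, and the 9 described here are HK2, GPI, ALDOA, TPI1, GAPDH, PGK1, ENO1, LDHA and LDHB. The remaining listed gene is not analysed here. Each had 1 row among the 19478 transcripts of every count table, and all 9 passed the filter on low counts in every test. The value of each gene is the number of ribosome footprints on its coding sequence. Levels are given as CPM, the count as a share of the library's total scaled to 1e6.

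Ribosome profiling sequences the short mRNA fragments that ribosomes shield from RNase I, so a footprint count reflects both how much mRNA a cell holds and how many ribosomes sit on it. Since rRNA fragments crowd such libraries, the study set rRNA depletion methods beside libraries without depletion. HEK293T libraries (fragments of 15 to 35 nt, 2 per method) were undepleted or treated with the legacy Ribo-Zero Gold kit, RiboCop or NEBNext. K562 libraries came from 2 experiments. A size-selection experiment crossed NEBNext with a 20 to 34 or a 20 to 60 nt window, with 1 library per combination. A kit experiment at 20 to 34 nt had 2 undepleted libraries, 2 with FastSelect, 2 with riboPools and 2 with riboPools eluted cold, and 1 each of Ribo-Zero Plus alone, with oligos, with formaldehyde and with both. HEK293FT (15 to 35 nt) had 1 undepleted library and 1 depleted with custom oligos. HEK293T and HEK293FT are embryonic kidney lines that carry the SV40 large T antigen, and K562 is a chronic myeloid leukaemia line with erythroid features. All lysates contained cycloheximide, which halts elongating ribosomes. No label gives separate cultures, so the p-values measure the spread between libraries, which may be technical.

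Library totals ran from 46858 to 5795774 counts, and the 8 HEK293T libraries were shallow (120019 to 421521 counts). The lines matched their markers: all 9 K562 marker genes on a fixed list were called higher in K562 than in HEK293T, and of the 4 HEK293 markers tested 3 were called lower. The called markers passed the filter on low counts only through the line in which they were high, so these counts are a description. Both size-experiment libraries titled undepleted also carry a label that names NEBNext, and the title was used. Intervals on counts below cover counting error only, as reads copied by PCR are not independent molecules.

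Glycolysis splits glucose into pyruvate in the cytosol, and lactate dehydrogenase then turns pyruvate into lactate, which restores the oxidised NAD that the pathway needs. HK2 encodes hexokinase 2, which phosphorylates glucose, and GPI the isomerase that makes fructose 6-phosphate. ALDOA cleaves the 6-carbon sugar and TPI1 interconverts its triose products. GAPDH carries out the oxidation step, PGK1 makes the first ATP of the lower pathway, and ENO1 forms phosphoenolpyruvate. LDHA and LDHB are the subunits of lactate dehydrogenase. Proliferating lines run this pathway at a high rate, and its mRNAs are among the most translated in such cells.

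Several of these mRNAs have left processed copies in the genome, intronless relics of reverse transcription, so short footprints cannot always be placed on 1 gene. The first 90 coding bases of GAPDH, TPI1 and LDHA are shown beside those of the most alike copy, since these show how little a 28-nt fragment has to go on. They are taken from GENCODE 29 transcripts on GRCh38, and capitals mark the positions at which the members of a pair differ.
GAPDH: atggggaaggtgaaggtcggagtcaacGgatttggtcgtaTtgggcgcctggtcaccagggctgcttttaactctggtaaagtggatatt
GAPDHP1: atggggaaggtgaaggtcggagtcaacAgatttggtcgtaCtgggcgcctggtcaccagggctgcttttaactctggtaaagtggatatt
TPI1: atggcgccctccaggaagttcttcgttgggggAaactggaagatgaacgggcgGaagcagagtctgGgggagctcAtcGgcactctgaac
TPI1P1: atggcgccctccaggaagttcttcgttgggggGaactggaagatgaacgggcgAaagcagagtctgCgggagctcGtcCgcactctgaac
LDHA: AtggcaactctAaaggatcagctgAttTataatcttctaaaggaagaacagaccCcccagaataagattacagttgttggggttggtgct
LDHAP4: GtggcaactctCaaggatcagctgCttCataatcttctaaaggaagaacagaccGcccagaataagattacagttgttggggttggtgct

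In this stretch GAPDH and the pseudogene GAPDHP1 differ at 2 positions. A footprint that lies within the stretch and downstream of the second position reads the same in both. TPI1 and TPI1P1 differ at 5 positions here and at 14 of 747 over the whole coding sequence, an identity of 98.1%. LDHA and LDHAP4 differ at 5 positions of the stretch, the first of which replaces the A of the start codon in the copy. The source genes lie on GRCh38 chromosome 12 at 6533927 to 6538371 (GAPDH, forward strand), chromosome 12 at 6867531 to 6870828 (TPI1, forward) and chromosome 11 at 18394388 to 18408425 (LDHA, forward).

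Over whole coding sequences, the share of 28-nt windows found unchanged in a transcript of another gene differed widely between members. It was 70.4% for GAPDH, with 49 pseudogenes among the sources, 68.9% for TPI1 and 53.0% for LDHA. GAPDHP1 alone held 32.7% of the GAPDH windows. HK2 had 38.0%, nearly all in the single copy HK2P1, and PGK1 had 34.6%. ENO1 had 21.5% and GPI 10.1%. The shares of GPI and LDHB were of another kind. All shared windows of GPI were in AC092073.1, a protein-coding gene that overlaps it, and none in a pseudogene. LDHB had 93.4%: pseudogenes covered 16.4% of its windows, while 90.6% were shared with an overlapping readthrough transcript, AC010197.2. Reads from such windows could be split, dropped or given to 1 gene, and how the counting treated them is not given in the sources used here. PGAM1, a phosphoglycerate mutase that makes the substrate of ENO1, had every window (100%) in another transcript and still had 67 and 115 counts in the undepleted HEK293T libraries. ALDOA is left out here and from the levels per length, because the deposited version of its transcript differs from the GENCODE 29 one, which has a shorter coding sequence under another gene name. The deposited versions for GPI, ENO1 and PFKM also differ from GENCODE 29. These genes were kept, with the coding sequences of GENCODE 29.

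**Figure D1:**
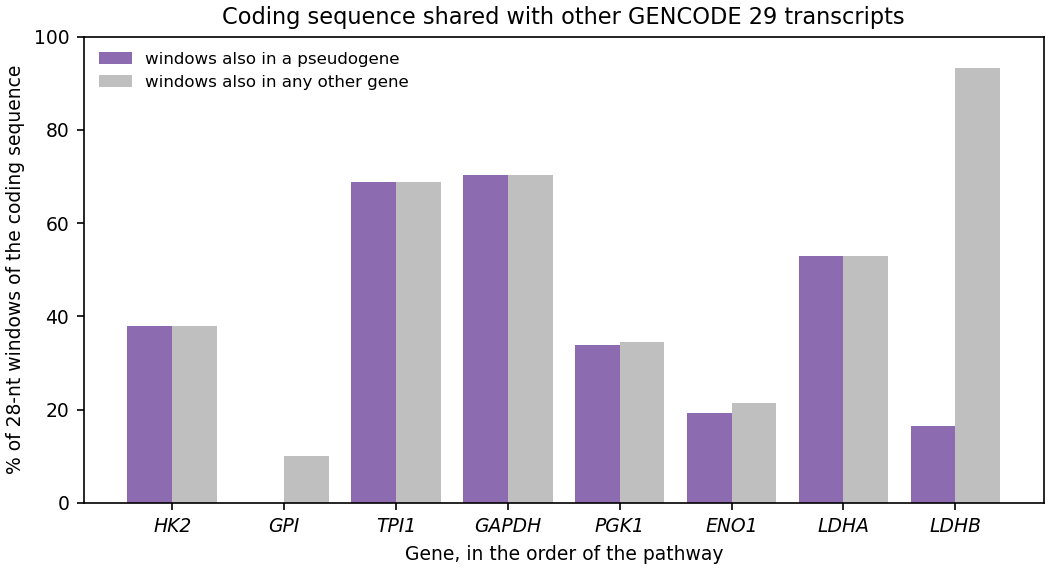
Share of the 28-nt windows of each coding sequence (y, percent) that also occur in a pseudogene (purple) or in any other gene (grey), for 8 genes in pathway order. GAPDH and TPI1 have the highest pseudogene shares (70.4% and 68.9%), GPI has none, and the grey LDHB bar comes mainly from a readthrough transcript.

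Summed over the 9 genes, glycolytic footprints took a narrow share of every library, 1.55% to 1.94% of all counts. In the undepleted libraries the sum was 1.78% and 1.68% in HEK293T, 1.73% and 1.76% in K562 (kit experiment) and 1.55% in HEK293FT.

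Footprints per kilobase of coding sequence allow the steps to be compared within a line, with 1 limit. The share of windows also found in other genes runs from 10.1% (GPI) to 93.4% (LDHB). How reads from such windows were counted is not known, so the order of genes could shift. GAPDH stood first and HK2 last in all 3 lines. In undepleted HEK293T, GAPDH had 4253 and 4643 CPM per kilobase and HK2 had 37.9 and 66.6. Between these, the order of the means in HEK293T was LDHB, ENO1, LDHA, TPI1, PGK1, GPI. LDHB (2387 and 2520) and ENO1 (2406 and 2482) overlapped and could not be ordered, while the other neighbours did not overlap over 2 libraries.

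In undepleted K562 ENO1 took the second place, with 3238 and 3335 CPM per kilobase. LDHB (1392 and 1412) and LDHA (1279 and 1445) overlapped there, TPI1 followed at 924 and 948, and PGK1 and GPI came next with 703 to 751 and 498 to 506. HEK293FT, with 1 library, had LDHB, ENO1, TPI1, LDHA, PGK1 and GPI between GAPDH and HK2. So the upper step (HK2) and the phosphofructokinases, which had 41.0 to 66.2 CPM per kilobase as HEK293T means, lay far below the lower steps.

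**Figure D2:**
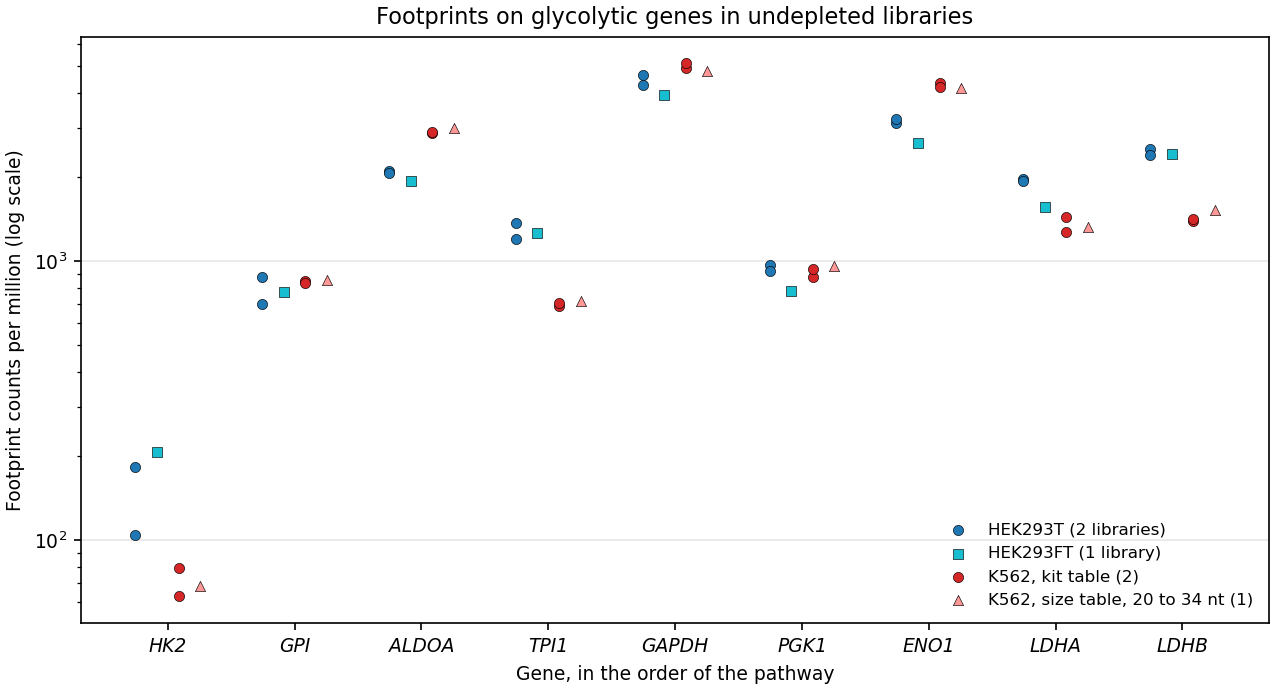
Footprints (y, CPM on a log scale) of the 9 genes in pathway order (x) in each undepleted library of HEK293T, HEK293FT and K562; each point is 1 library. ALDOA and ENO1 are higher in both K562 experiments than in the kidney lines, TPI1, LDHA, LDHB and HK2 are lower, and GPI and PGK1 lie close together.

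K562 and HEK293T differed at most steps, and not in 1 direction. Of the 9 genes, 8 were called at an adjusted p under 0.05 with edgeR's quasi-likelihood test (2 undepleted libraries each): ALDOA, ENO1, GAPDH and GPI rose in K562, and HK2, TPI1, LDHA and LDHB fell. The lines differ widely as a whole: 39.1% of the 7304 genes tested were called, 20.8% higher and 18.3% lower. The members' log2 fold changes lay between -0.79 and 0.64 with a median of 0.11, beside 0.04 over all genes. Cell line, experiment, fragment window (15 to 35 against 20 to 34 nt) and growth medium (DMEM or RPMI) change together here and cannot be told apart.

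Among genes higher in K562, ALDOA had 2100 and 2066 CPM in HEK293T and 2870 and 2914 in K562. Its log2 fold change was 0.64 ± 0.07 (SE, edgeR adjusted p = 1.39e-17). ENO1 had 3133 and 3232 CPM against 4342 and 4217, a log2 fold change of 0.59 ± 0.06 (adjusted p = 4.53e-20). For both genes the K562 libraries lay above the HEK293T ones without overlap. With 2 libraries per line genes can separate in this way by sampling alone, and the share of all genes that do was not computed. GAPDH had 4666 and 4275 CPM against 4909 and 5114, which is 1.12 times on the CPM scale and 0.33 ± 0.06 on the log2 scale after TMM scaling (adjusted p = 2.48e-08). With the K562 libraries of the size experiment GAPDH was not called (0.15, adjusted p = 0.157).

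GPI had 875 and 704 CPM in HEK293T and 846 and 834 in K562, so its libraries overlapped. Its call (log2 fold change 0.27 ± 0.11, adjusted p = 0.0359) rests on TMM, which lifts K562 by a median of 0.20 log2 over scaling by total counts. With total counts GPI had 0.08 (adjusted p = 0.614), and with the K562 libraries of the size experiment it had 0.19 (0.347). Without the second HEK293T library it had 0.13 (0.589). With DESeq2 the fold stayed at 0.27 while the call was lost (0.0797), as it was without the first K562 library (0.29, 0.0682) or the second (0.30, 0.0544). The same choice moved the share of calls that were higher in K562 from 53.2% to 40.2% of all called genes. PGK1, at 967 and 919 CPM against 880 and 940, was not called (0.11 ± 0.10, adjusted p = 0.393) and had -0.08 with total counts.

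Among genes lower in K562, TPI1 had 1375 and 1206 CPM in HEK293T and 690 and 708 in K562. Its log2 fold change was -0.71 ± 0.10 (edgeR adjusted p = 5.14e-12). LDHB fell from 2525 and 2391 CPM to 1395 and 1415 (-0.64 ± 0.07, adjusted p = 1.17e-16). LDHA fell from 1975 and 1942 CPM to 1273 and 1439 (-0.37 ± 0.08, adjusted p = 2.39e-05). None of these overlapped between the lines, again with 2 libraries each and no share over all genes. Without the first K562 library LDHA had a log2 fold change of -0.25 and its call was lost.

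HK2 had 183 and 104 CPM in HEK293T, from 22 and 16 counts, and 79.3 and 63.0 in K562. The log2 fold change was -0.79 ± 0.28 (edgeR adjusted p = 0.016). It was called in 4 of 9 alternatives; without the first HEK293T library it was -0.36 (adjusted p = 0.554), so this call rests on few counts. With the K562 libraries of the size experiment, in which 38.2% of 3177 genes were called, 5 members were called: ALDOA, ENO1, TPI1, LDHA and LDHB. With the libraries of the 2 kit experiments, one in each line, that were not treated with NEBNext or Ribo-Zero Plus, all 9 were called, but 67.6% of genes were.

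**Figure D3:**
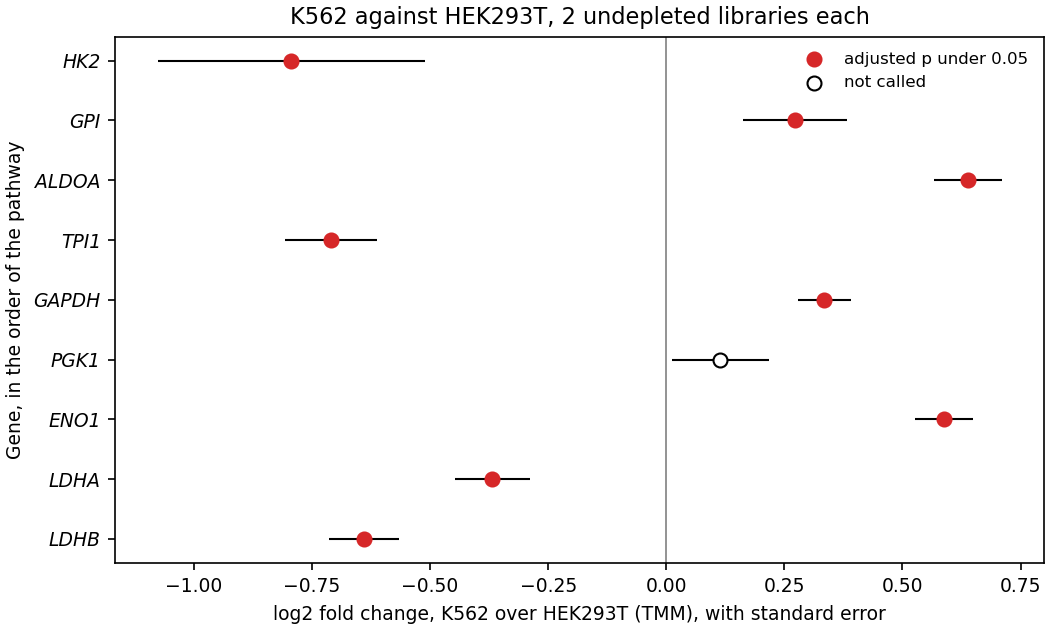
Log2 fold change of K562 over HEK293T (x, TMM-scaled, bars are standard errors) for the 9 genes in pathway order (y), from 2 undepleted libraries per line. Filled points were called; ALDOA and ENO1 lie at 0.64 and 0.59, TPI1 and LDHB at -0.71 and -0.64, and PGK1 is open. With scaling by total counts all points shift left by about 0.20 and PGK1 turns negative.

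Over all libraries, whatever the kit, 3 members did not overlap between the kidney lines and K562. TPI1 ran from 1029 to 1375 CPM in the 10 kidney-line libraries and from 548 to 725 in the 16 K562 libraries. ENO1 ran from 2636 to 3232 CPM in the kidney lines and from 3650 to 4857 in K562. HK2 ran from 104.3 to 206.5 against 8.6 to 104.2 CPM, which touch. Among 2698 genes averaging 100 counts or more per library, 20.6% did not overlap in this way.

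HEK293FT lay near HEK293T for most members. Its undepleted library had 0.80 to 0.98 times the HEK293T mean for 8 genes and 1.44 times for HK2 (206 against 144 CPM). None of these passed 2-fold, as did 2.95% of the 679 genes described. HK2 averages under 100 counts in these libraries and lies outside the 679. Against HEK293FT, K562 had 1.61 times the ENO1 level, 1.49 times the ALDOA level and 1.27 times the GAPDH level. In K562 TPI1 was at 0.55, LDHB at 0.58 and HK2 at 0.34 times HEK293FT; HK2 was past 2-fold, as were 23.9% of 2018 genes. These ratios have 1 HEK293FT library and no test. The 2 K562 experiments had alike levels: the undepleted 20 to 34 nt library of the size experiment had 0.96 to 1.09 times the kit experiment's mean for all 9 genes, where 0.19% of 1577 genes were past 2-fold. HK2 lies outside the 1577 for the same reason.

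HK2 took a smaller share of hexokinase footprints in K562. It made up 59.5% and 51.6% of hexokinase 1 and 2 footprints in undepleted HEK293T, 59.4% in HEK293FT and 17.3% and 15.4% in K562. HK1, the other widely expressed hexokinase, had 125 and 97.7 CPM in HEK293T and 380 and 346 in K562 (log2 fold change 1.89 ± 0.22, edgeR adjusted p = 5.58e-16). HK1 did not overlap between the 10 kidney-line libraries (97.7 to 141 CPM) and the 16 K562 libraries (288 to 512 CPM). LDHA made up 43.9% and 44.8% of lactate dehydrogenase footprints in undepleted HEK293T and 47.7% and 50.4% in K562. In HEK293FT it made up 39.4% (95% exact binomial interval 37.8 to 41.0).

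**Figure D4:**
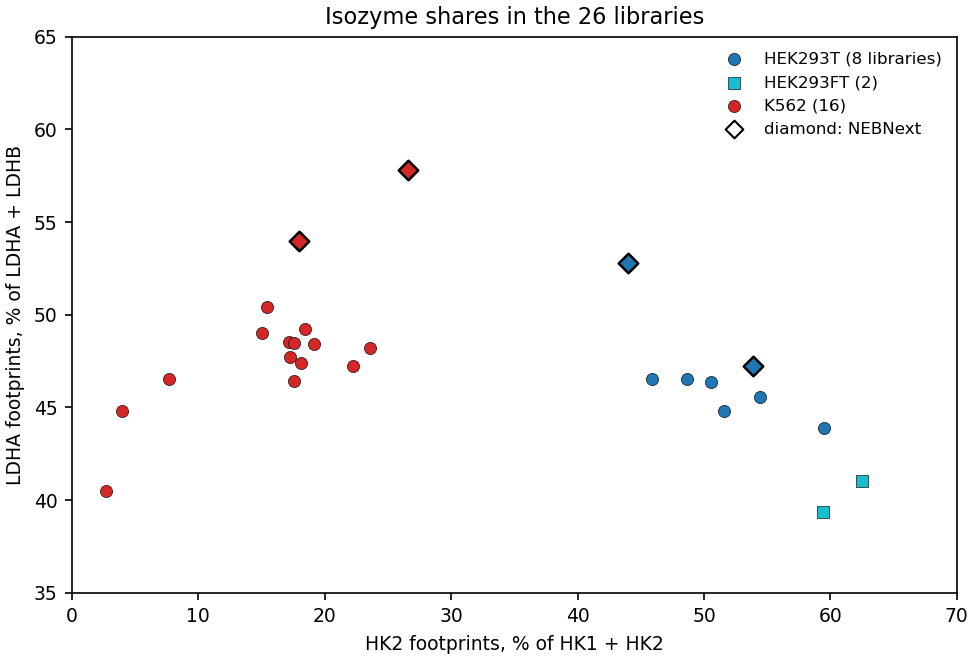
HK2 as a percentage of HK1 and HK2 footprints (x) against LDHA as a percentage of LDHA and LDHB footprints (y) in the 26 libraries; diamonds are NEBNext. K562 libraries lie between 2.7% and 26.6% on the x axis and kidney-line libraries between 44% and 62.5%, and the y axis starts at 35%.

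Of 19 other listed isozymes and enzymes of the pathway, 11 were tested. In K562 6 of these rose and 3 fell, in a comparison where 39.1% of all genes were called. ALDOC, PKLR, ENO3 and PGK2 passed the filter on low counts only through K562, so these counts are a description. ALDOC, the brain-type aldolase, had 1 and 10 counts in HEK293T and 278 and 232 in K562, a CPM ratio of 5.85 (log2 fold change 2.70 ± 0.32). PKLR, the liver and red cell pyruvate kinase, had 0 counts in HEK293T and 113 in each K562 library, at least 9.51-fold higher against a floor of 3 counts over the HEK293T group. ENO3, the muscle enolase, and PGK2, the testis phosphoglycerate kinase, had 1 count each in HEK293T. K562 had 24 and 30 counts of ENO3 and 29 and 24 of PGK2. ENO2, the neuronal enolase, was not called (0.81 ± 0.47, adjusted p = 0.168).

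PFKM, the muscle phosphofructokinase, fell in K562 from 154 to 23.1 CPM in pooled libraries (-2.56 ± 0.34), while PFKP rose (0.92 ± 0.27) and PFKL was not called (0.54 ± 0.25, adjusted p = 0.0748). PGAM1 fell (-1.14 ± 0.14), as did its near copy PGAM4 (-0.82 ± 0.20), which shares 63.1% of its windows with PGAM1, so their reads may not be separable. PFKL, PFKP, PGAM1 and PGAM4 were singled out after their values were seen.

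Genes around the pathway were called in both directions, beside the 39.1% of all genes. SLC2A3 passed the filter on low counts only through K562. PGM1, PDK3 and TIGAR passed it only through HEK293T, so the counts by direction below are a description. Of 6 tested carriers of glucose, lactate or pyruvate, 2 rose in K562 and 2 fell. SLC2A1, the glucose transporter GLUT1, rose from 98.7 to 310 CPM in pooled libraries (log2 fold change 1.81 ± 0.24), and SLC2A3, the transporter GLUT3, had 0 and 1 counts in HEK293T and 290 and 223 in K562. Among 10 genes of the pentose phosphate and hexose phosphate side paths, 3 rose and 2 fell. PGD, of the oxidative pentose phosphate branch, rose (1.64 ± 0.15), and PGM1, a phosphoglucomutase, had 9 and 6 counts in HEK293T and 0 in K562, at least 39.6-fold lower against 3 counts over the K562 group.

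Of 8 tested genes of pyruvate use, 4 rose and 2 fell. PDK3, a kinase that inhibits pyruvate dehydrogenase, had 4 and 11 counts in HEK293T and 0 and 1 in K562. Among 3 tested regulators, TIGAR, a fructose bisphosphatase, fell, from 36.6 to 2.31 CPM (5 and 5 counts against 1 and 4), and none rose.

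NEBNext, in which DNA probes direct RNase H to the rRNA, was the kit with called members. In HEK293T 2 of 9 members were called, and 3.24% of 4410 genes were. GAPDH rose: the NEBNext libraries had 6158 and 5923 CPM beside 4666 and 4275 in undepleted ones (log2 change 0.45 ± 0.07, SE; edgeR adjusted p = 2.21e-08). LDHB fell from 2525 and 2391 to 2010 and 1706 CPM (-0.40 ± 0.09, adjusted p = 0.00127). Without the second NEBNext library the LDHB change was -0.28 (adjusted p = 0.313). PGK1 (0.33 ± 0.13, adjusted p = 0.144) and ENO1 (-0.19 ± 0.08, adjusted p = 0.222) were not called.

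In K562 NEBNext was tested over the 2 size windows, with 1 library each, and 0 members were called while 2.72% of 3715 genes were. Before adjustment 3 members had p under 0.05, and DESeq2 called 0. GAPDH had 6019 CPM with NEBNext and 4815 without at 20 to 34 nt, and 5583 and 4354 at 20 to 60 nt. Its ratios were 1.25 (95% interval 1.159 to 1.349) and 1.28 (1.104 to 1.496), and its log2 fold change was 0.39 ± 0.13 (edgeR adjusted p = 0.0673). Without the filter on low counts GAPDH was called (0.48, adjusted p = 0.0178), as were 0.679% of genes. Without the NEBNext library of 20 to 60 nt 4 members were called, all higher: GAPDH, PGK1, ENO1 and LDHA, in a fit with no size term that called 6.36% of genes.

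PGK1 had ratios of 1.38 (1.17 to 1.64) and 1.23 (0.87 to 1.77) in the same windows, and LDHB had 0.84 (0.73 to 0.97) and 0.83 (0.64 to 1.08). ENO1 moved in opposite directions, at 1.16 and 0.85 times. The test of whether the NEBNext effect differed between the lines called 0 members and 0.296% of 4736 genes. LDHA had the smallest p among members (difference 0.46 ± 0.18, unadjusted p = 0.0119, adjusted p = 0.446), and GAPDH had a difference of -0.04 ± 0.14.

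Set beside every other library of the same line, NEBNext placed GAPDH and PGK1 apart in both lines. GAPDH had 5923 and 6158 CPM in HEK293T against 3983 to 4666 in the 6 others, and 5583 and 6019 in K562 against 4283 to 5114 in the 14 others. PGK1 had 1110 and 1213 CPM in HEK293T against 845 to 1067, and 1047 and 1330 in K562 against 648 to 985. Of 2698 genes, 1.41% lay above all other libraries in both lines. LDHA lay on opposite sides, with 1800 and 1910 CPM in HEK293T below the others (1942 to 2305) and 1597 and 1756 in K562 above them (1115 to 1439), as did 0.704% of genes. LDHB was below all others in HEK293T (1706 and 2010 against 2351 to 2650) and overlapped in K562. ENO1 did the same (2636 and 2925 against 2943 to 3232 in HEK293T). HK2 overlapped in HEK293T and was above all others in K562 (95.1 and 104.2 against 8.6 to 92.5). The share of all genes with such patterns in 1 line was not computed.

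LDHA as a share of lactate dehydrogenase footprints was 47.2% and 52.8% with NEBNext in HEK293T, against 43.9% to 46.5% in the others. The exact binomial intervals of these NEBNext libraries were 42.8 to 51.7 and 49.1 to 56.5, and the first covers all the others' shares. In K562 the share was 57.8% (55.1 to 60.5) and 54.0% (49.9 to 58.1) with NEBNext, against 40.5% to 50.4%. The second K562 interval covers the highest of the others. The share of other gene pairs that separate in this way was not computed. MPC2, a subunit of the mitochondrial pyruvate carrier, was the single gene of the pathway lists other than members called in a kit comparison. It rose with NEBNext in HEK293T (12 and 32 counts against 3 and 10; 1.47 ± 0.44, adjusted p = 0.0288) and in K562 (151 and 36 counts against 13 and 2; 2.33 ± 0.36, adjusted p = 4.06e-08).

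**Figure D5:**
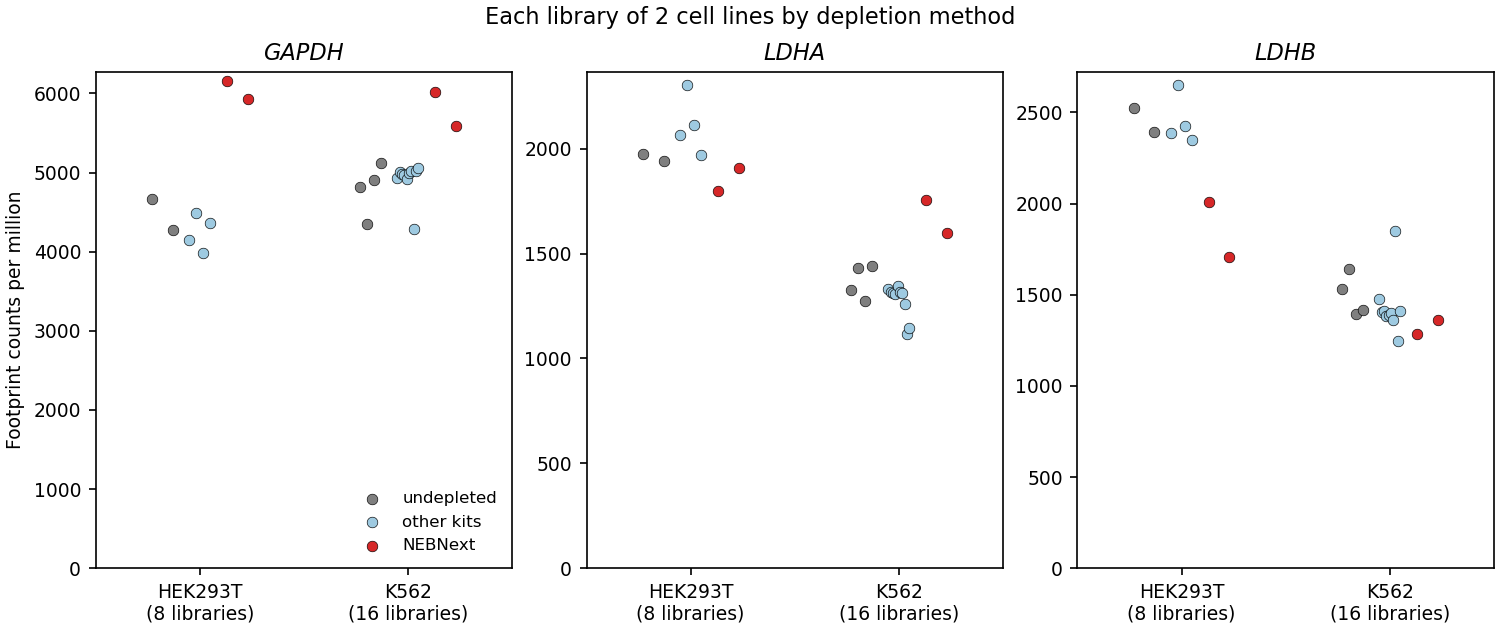
Footprints (y, CPM from 0) of GAPDH, LDHA and LDHB in each HEK293T and K562 library, as undepleted (grey), other kits (blue) or NEBNext (red); each point is 1 library. NEBNext GAPDH lies at 5583 to 6158 CPM and all others at or below 5114, while LDHA with NEBNext is low in HEK293T and high in K562.

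For the other kits no member passed the test. With Ribo-Zero Gold, which pulls rRNA out on beads, 0 of 9 members and 0.068% of genes were called in HEK293T, and with RiboCop 0 members and 0% of genes. The members' log2 fold changes lay between -0.19 and 0.14 with Ribo-Zero Gold and between -0.07 and 0.10 with RiboCop. Before adjustment 1 and 0 members had p under 0.05, and DESeq2 called 0 for both. GAPDH had 4147 and 3983 CPM with Ribo-Zero Gold and 4488 and 4361 with RiboCop.

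In the deeper K562 kit experiment 0 members were called with FastSelect (0.0205% of 9761 genes), riboPools (0.082%) or its cold elution (0.225%). Before adjustment 1, 2 and 2 members had p under 0.05, and DESeq2 called 0 for each. Apart from HK2, whose log2 changes were 0.11, 0.20 and 0.09, no member moved by more than 0.10. GAPDH ran from 4912 to 5005 CPM over these 6 libraries, within its undepleted range of 4909 to 5114. The 20 to 60 nt window against the 20 to 34 nt window called 0 members and 0.162% of genes; ENO1 (-0.23 ± 0.13) and PGK1 (-0.31 ± 0.17) had the largest differences. Before adjustment 0 members had p under 0.05, and DESeq2 called 0.

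Custom oligos in HEK293FT left each member within 0.93 to 1.05 times its undepleted level, and 0% of 5225 genes passed 2-fold. GAPDH had 4132 against 3932 CPM (1.05 times, 95% interval 1.01 to 1.09) and LDHB 2232 against 2411 (0.93 times, 0.88 to 0.97). These compare 2 libraries and cover counting error only.

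With Ribo-Zero Plus, also an RNase H method, 0 members and 0% of 7322 genes were called over the 4 libraries. Before adjustment 2 members had p under 0.05, and DESeq2 called 0. Fitted with all 12 libraries of the kit experiment, 6 were called: HK2, GPI, ALDOA, TPI1, PGK1 and LDHA, all lower, with 14.9% of genes called. Leaving out any 1 of the 4 Ribo-Zero Plus libraries gave 4 to 7 calls, all lower. The share of all genes called was then 36% without the kit alone, 31.4% without the formaldehyde library, 31.3% without the oligo library and 40% without the library with both. With the kit alone every member but HK2 had 0.96 to 1.03 times its undepleted level. In the fit of the 4 Ribo-Zero Plus libraries the median log2 fold change of the members was -0.20 and that of all genes -0.25. The libraries with oligos or formaldehyde held 116742 to 184722 counts, against 1840190 for the kit alone.

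HK2 was low in both formaldehyde libraries. It had 1 count (8.57 CPM) with formaldehyde and 2 counts (12.1 CPM) with oligos and formaldehyde, against 71.5 CPM in the pooled undepleted libraries. These are ratios of 0.12 (95% interval 0.003 to 0.68) and 0.17 (0.02 to 0.62). The kit alone had 0.83 (0.64 to 1.07) and the kit with oligos 1.21 (0.68 to 2.03). TPI1 had 548 and 557 CPM in the formaldehyde libraries and 640 to 725 in the other K562 libraries without NEBNext. The NEBNext library of 20 to 34 nt had 551 CPM. The TPI1 ratios to undepleted were 0.78 (0.60 to 1.01) with formaldehyde and 0.80 (0.64 to 0.98) with oligos and formaldehyde. The share of all genes that separate in this way was not computed. PGK1 had 702 and 648 CPM in the formaldehyde libraries. ALDOA was lowest with oligos and formaldehyde (1950 CPM), and LDHB was highest with formaldehyde alone (1850 CPM). Past 2-fold were 0.193% of the genes described with the kit alone, 8.51% with oligos, 15.4% with formaldehyde and 13.9% with both. HK2 averages under 100 counts and lies outside these genes; each value is 1 library with no replicate check.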

How the data were processed

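The build GRCh38 and the tools CASAVA 1.8 and STAR are named per the submitters' processing notes; their roles, the read filters and the treatment of reads with several matches are not given in the sources used here. The deposited files are 4 tables of whole-number counts of footprints on coding sequences, each row 1 transcript. The deposited RPM values equal the count over the library total (largest relative difference 4.4e-16), so the counts were used.

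The main test was that of edgeR 4.0.16 in R 4.3.3, with TMM scaling, filterByExpr with its minimum count of 10, the quasi-likelihood test and Benjamini-Hochberg adjustment over all genes tested, with calls at an adjusted p under 0.05. HEK293T kits shared 1 fit of 8 libraries. FastSelect and both riboPools forms shared 1 fit with the undepleted libraries. Ribo-Zero Plus was fitted with oligos and formaldehyde as additive terms, and the K562 size experiment with 1 term for NEBNext and 1 for size, so that 1 degree of freedom is left for the spread. K562 against HEK293T used the undepleted libraries alone. A standard error is the size of the log2 change divided by the square root of F. Ratios of single libraries carry exact 95% binomial intervals and no test; their 2-fold shares cover genes averaging 100 counts or more. Alternatives were total-count scaling, DESeq2 1.42.0, no filter, other sets of libraries and each library left out.

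Coding lengths and windows come from GENCODE 29, whose transcript versions equal the deposited ones for 97.51% of rows. The test was checked on simulated counts with 200 genes changed 2-fold: it recovered 32% of them for HEK293T NEBNext (4108 genes) and 40% for K562 against HEK293T (6693 genes). Of the calls, 5.88% were false in each. The members' changes in these comparisons were smaller than 2-fold, and recovery of smaller changes was not simulated. In a chi-square test of replicates only the RiboCop pair differed by no more than sampling noise (p = 0.103), and it was kept as 2 libraries because barcodes and totals differ. The members and lists were chosen with earlier results of these data known. All members were named; of the other lists, the 12 called genes with the largest change between the lines of at least 1 on the log2 scale, those called for a kit, and isozymes that share a step with a member.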

Additional observations from a re-analysis of the deposited data

How the results depend on the processing

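No member called in a comparison changed sign under any alternative run for it; PGK1, not called between the lines, had -0.08 with total counts. For K562 against HEK293T, 5 members were called with the K562 libraries of the size experiment in place of 8, and 6 to 7 with 1 library left out. For HEK293T NEBNext the count was 1 to 2 with 1 library left out. For K562 NEBNext 1 member was called without the filter on low counts and 0 to 4 with 1 library left out, a fit that drops the size term and takes its spread from 1 pair, with the lone library assumed to vary alike. For riboPools with cold elution 1 member (ENO1) was called when only the libraries of both groups were fitted. For Ribo-Zero Plus 6 were called in the fit of all 12 libraries and 0 to 7 with 1 library left out. Dropping a Ribo-Zero Plus library leaves the spread to the undepleted pair. The cause of the other changes was not tested. Replicate numbers were not taken to pair the libraries: correlations of same-numbered deviations were 0.064 to 0.137 in HEK293T, where 4 of 6 were over 0.1, and -0.049 to 0.020 in K562. With the replicate block 2 members were called for HEK293T NEBNext and 0 for each other kit with 2 libraries, as without it. Depth limits HK2 most: it had 22 and 16 counts in undepleted HEK293T.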
